A study of Homo sapiens with 18 samples.

Results

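The hnRNP, SR and CLK splicing regulators were followed as 40 named rows of an expression table of 26249 gene rows in 18 human RNA libraries. They comprise the HNRNP genes and PTBP1, the SRSF genes with TRA2A and TRA2B, and the CLK and SRPK kinases, chosen by gene symbol. HNRNPH2 and its read-through row RPL36A-HNRNPH2 were summed, which gave 39 genes, and all 39 passed the filter on low values in every comparison below. The libraries came from 2 cell lines that the submitters call multiple myeloma, a plasma cell cancer. Their series title describes them as resistant lines. XG1 and AMO1 cells were grown in RPMI medium with serum and given DMSO, 100 nM YKL-5-124 or 1000 nM YKL-5-124 for 24 h, with 3 libraries in each of the 6 groups. YKL-5-124 is a covalent inhibitor of CDK7, the kinase of the general transcription factor TFIIH that phosphorylates the tail of RNA polymerase II and also activates the cell cycle kinases. Total RNA was sequenced from its 3′ ends, and values were deposited as FPKM (fragments scaled to gene length and library size). The labels do not say whether the 3 libraries of a group came from separate cultures, so p-values measure the spread between these libraries, which may be technical.

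Heterogeneous nuclear ribonucleoproteins (hnRNPs) coat newly made transcripts and often hide splice sites, while SR proteins bind exons through RNA recognition motifs and recruit the splicing machinery through domains rich in arginine and serine. SRPK kinases phosphorylate SR proteins in the cytoplasm and favour their entry into the nucleus, and CLK kinases phosphorylate them further in the nucleus. Many of these genes regulate their own mRNA by splicing in or out a cassette exon, or by retaining an intron, so that part of the transcripts carries an early stop codon and is degraded or stays nuclear.

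The libraries labelled XG1 go against the name multiple myeloma. Of 10 plasma cell markers, 5 had a mean of at least 1 FPKM in the DMSO libraries labelled XG1, with sums of 91.6 to 145 FPKM, whereas all 10 did in AMO1, with sums of 8363 to 9397 FPKM. IRF4, a transcription factor that plasma cells need, averaged 0.533 ± 0.310 FPKM in XG1 and 77.5 ± 6.13 FPKM in AMO1 (SD, n = 3 each). Of 12 erythroid markers, 12 reached that mean in XG1, with sums of 4824 to 5237 FPKM, and 2 did in AMO1, with sums of 106 to 121 FPKM. The fetal globin gene HBG1 averaged 1448 ± 113 FPKM in XG1 and 0.941 FPKM in AMO1. The embryonic globin gene HBE1 went the other way, with 67.2 ± 7.48 FPKM in XG1 and 106 ± 8.49 FPKM in AMO1, where it made up most of the erythroid sum. Every comparison of the lines is therefore between the libraries labelled XG1 and the AMO1 libraries. With dose the erythroid sum in XG1 was 4824 to 5237 FPKM in DMSO, 3050 to 3886 FPKM at 100 nM and 3378 to 3740 FPKM at 1000 nM, and the plasma cell sum in AMO1 was 8363 to 9397, 9968 to 10710 and 5256 to 8166 FPKM. SDC1 made up most of that AMO1 sum, with means of 5067, 7801 and 5468 FPKM in DMSO, at 100 nM and at 1000 nM, while IRF4 averaged 77.5, 44.8 and 24.4 FPKM and JCHAIN 1924, 1209 and 847 FPKM. The part of these shifts in the results below was not tested.

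The total over all genes had medians of 1298798, 1057060 and 953443 FPKM in XG1 in DMSO, at 100 nM and at 1000 nM, and of 1548381, 922193 and 683618 FPKM in AMO1, while the total over the added spike-in RNAs stayed between 166717 and 187657 FPKM in every library. Such level totals are what a rescaling to the spike-ins would leave, but no label states that step, nor whether spike-ins were added per cell or per amount of RNA. A relative scale, on which each library is divided by its median ratio to the other libraries, is given beside the counts, and beside a gene described below where it ends its call. One library stands apart: AMO1 1000 nM replicate 2 had a gene total of 431965 FPKM, against 683618 to 686266 FPKM in its 2 partners, and 1199 FPKM over the 39 genes, against 1939 to 2054 FPKM. Read depth is unknown, and because reads come only from 3′ ends, levels of different genes cannot be ranked from FPKM.

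Most of the hnRNP and SR genes fell with 1000 nM YKL-5-124 in both lines. Of the 4 CLK kinases 0 fell in XG1 and 2 in AMO1, beside 13.2% and 65.7% of all genes. The classes were not tested against each other. At 1000 nM, 25 of the 39 genes were lower and 0 were higher than in DMSO in XG1 (limma, adjusted p under 0.05 over all 11809 genes tested), where 13.2% of all genes were lower and 3.67% higher. In AMO1, 36 of 39 were lower and 0 higher, where 65.7% of all 10502 genes were lower and 2.52% higher. At an unadjusted p under 0.05, 1 gene was higher in XG1 and 0 in AMO1. No share of all genes was computed at that threshold, here or below. Without AMO1 1000 nM replicate 2, 35 of the 39 genes were lower in AMO1, and the log2 changes of HNRNPDL, HNRNPAB and CLK1 were -2.91, -1.95 and -0.68, beside -3.01, -2.35 and -0.93 with it. The median log2 change of the 39 genes was -0.66 in XG1, beside -0.15 over all genes, and -1.61 in AMO1, beside -0.77 over all genes. In these bulk libraries, fewer cells of a type and less RNA per cell cannot be told apart. All 39 genes also passed a stricter filter of at least 5 FPKM in 3 libraries. Among all genes that passed it, 18.8% were lower in XG1, where 27 of the 39 were. In AMO1 79.0% were lower, where 36 of the 39 were. On the relative scale 21 genes were lower and 2 higher in XG1, beside 10.2% and 9.56% of all genes, and 28 were lower and 4 higher in AMO1, beside 24.0% and 24.9%.

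**Figure D1:**
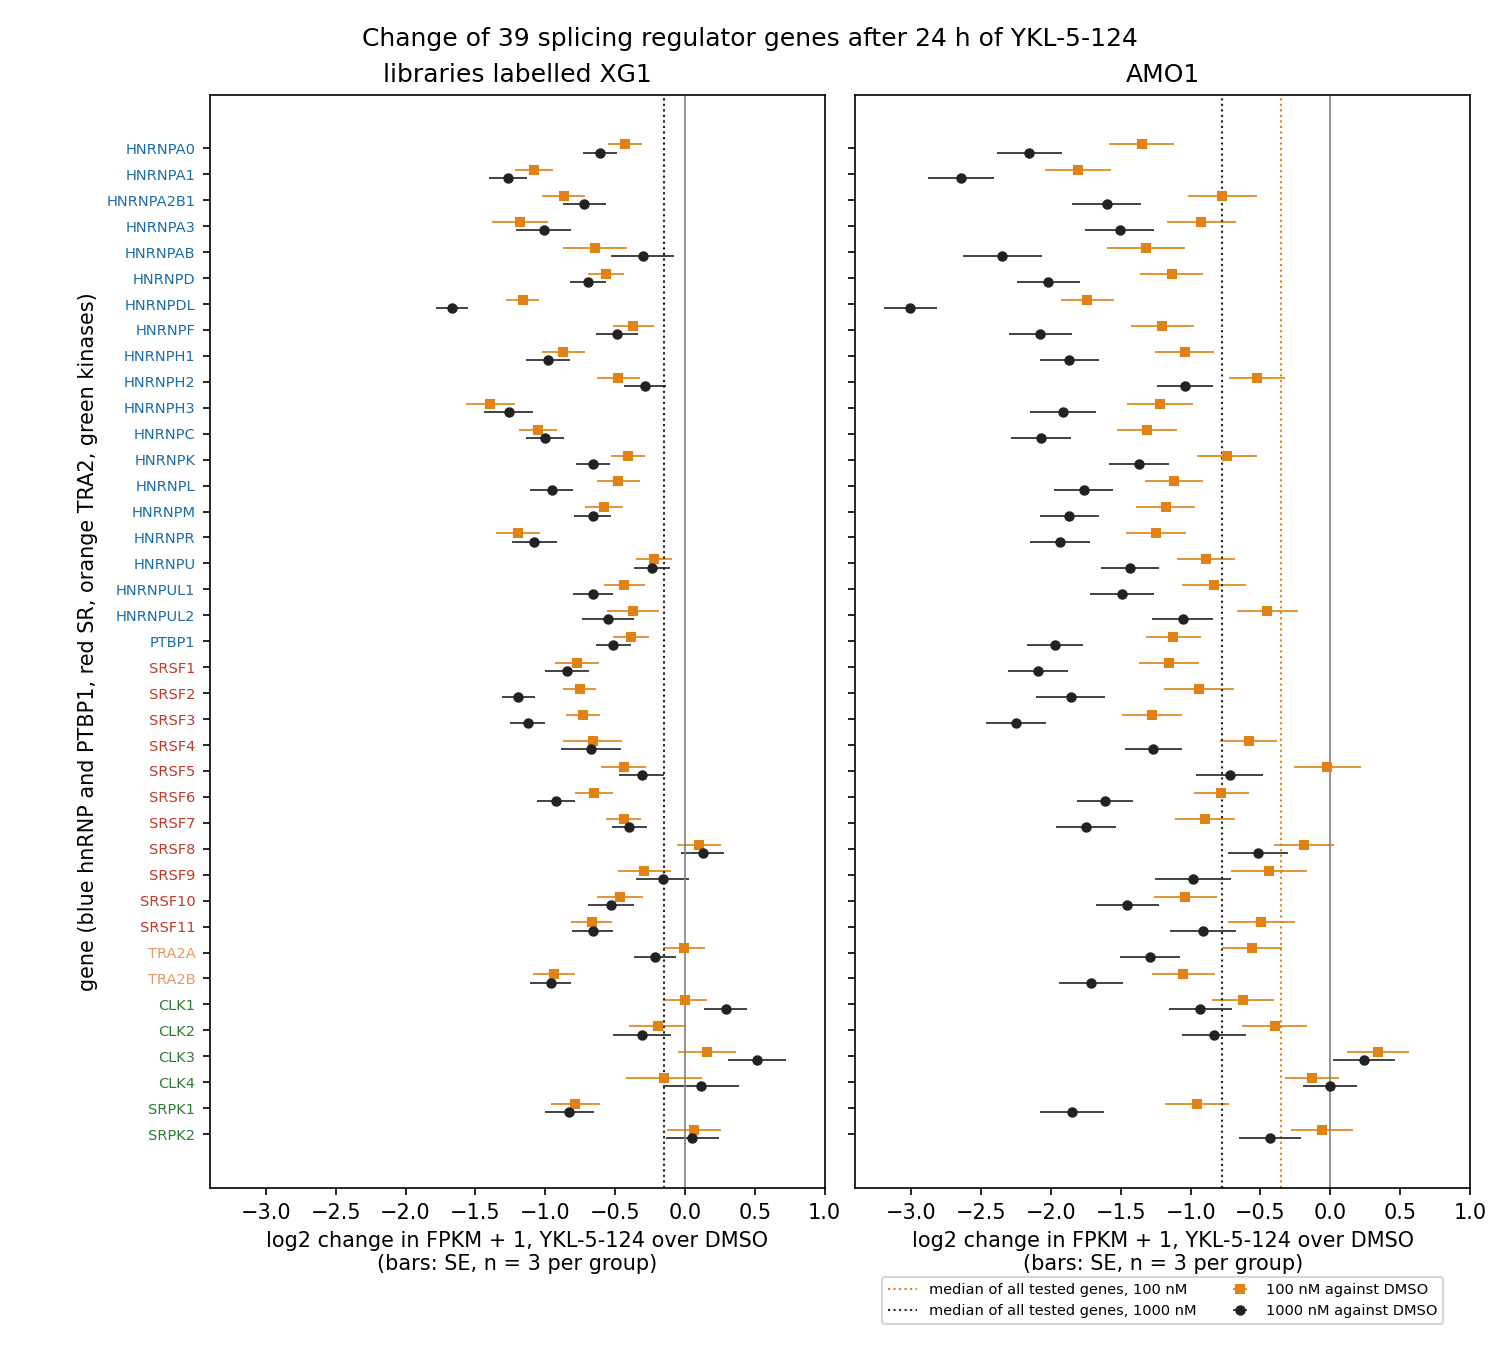
Log2 change against DMSO of each of the 39 genes at 100 nM and 1000 nM, with standard errors from limma, in the libraries labelled XG1 (left) and in AMO1 (right); dotted lines are the medians of all genes. At 1000 nM the changes centre on -0.66 in XG1 and -1.61 in AMO1, with HNRNPDL lowest in both panels and the CLK genes at the upper end.

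At 100 nM, 20 of 39 genes were lower and 0 higher in XG1, beside 9.98% and 2.46% of all genes, with a median log2 change of -0.48 beside -0.15. The XG1 count was 12 without DMSO replicate 1 and 13 without DMSO replicate 3. In AMO1, 28 were lower and 0 higher, beside 29.5% and 2.73% of all genes, with a median of -0.92 beside -0.35. At an unadjusted p under 0.05, 0 were higher in either line at 100 nM. Among genes of at least 5 FPKM, 20 of the 39 were lower in XG1, beside 15.7% of all such genes, and 30 in AMO1, beside 39.5%. After median-ratio scaling 16 were lower and 0 higher in XG1, beside 7.24% and 7.29% of all genes, and 26 were lower and 3 higher in AMO1, beside 17.0% and 14.2%.

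The libraries themselves show the same spread of behaviour. At 1000 nM all 3 XG1 libraries lay below all 3 DMSO libraries for 27 of the 39 genes and above them for 2, beside 30.1% and 11.5% of all genes. In AMO1 this held below for 36 genes and above for 0, beside 68.6% and 2.74%, and the 3 genes that overlapped were CLK3, CLK4 and SRPK2. At 100 nM the XG1 libraries lay below DMSO for 29 genes and above for 0, beside 24.6% and 7.18%, and the AMO1 libraries below for 33 and above for 0, beside 51.3% and 5.90%. CLK3, CLK4 and SRPK2 again overlapped DMSO in both lines at that dose, as did CLK2 and SRSF8. Between the doses, the 1000 nM libraries lay below the 100 nM libraries for 6 genes in XG1, beside 6.50%, and for 31 genes in AMO1, beside 48.1%. As a share of DMSO, the mean at 1000 nM ranged over the 39 genes between 31.2% and 144% in XG1, with a median of 63.2%, and between 12.0% and 118% in AMO1, with a median of 31.4%.

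The promoters of 4 genes described below are printed here. HNRNPDL had the lowest change of the 39 genes at 1000 nM in both lines. SRSF3 is an SR gene that fell at both doses. CLK1 and CLK3 were the genes whose XG1 libraries lay above DMSO at 1000 nM, as did 11.5% of all genes. Neither was called there on the deposited scale (limma, adjusted p = 0.232 and 0.116). Each sequence is the 250 bases before the start of transcription in RefSeq (GRCh38.p14), read 5′ to 3′ on the strand of the gene, with capitals marking matches on either strand to GGGCGG (the GC box), CCAAT (the CCAAT box), TATAAA (the TATA box) or CACGTG (an E-box). HNRNPDL lies on the minus strand at chr4:82430226-82430475, SRSF3 on the plus strand at chr6:36594112-36594361, CLK1 on the minus strand at chr2:200864659-200864908 and CLK3 on the plus strand at chr15:74608122-74608371.
HNRNPDL: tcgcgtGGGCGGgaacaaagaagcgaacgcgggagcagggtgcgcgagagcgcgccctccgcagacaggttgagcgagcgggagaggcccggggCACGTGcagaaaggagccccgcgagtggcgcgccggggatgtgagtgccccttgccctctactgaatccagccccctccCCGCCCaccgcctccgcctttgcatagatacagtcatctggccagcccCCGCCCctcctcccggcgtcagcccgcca
SRSF3: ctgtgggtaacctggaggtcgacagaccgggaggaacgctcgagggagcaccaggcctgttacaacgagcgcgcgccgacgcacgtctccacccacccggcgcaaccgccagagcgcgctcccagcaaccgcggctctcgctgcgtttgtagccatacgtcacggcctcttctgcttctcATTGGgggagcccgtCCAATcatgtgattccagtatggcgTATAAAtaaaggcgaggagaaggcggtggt
CLK1: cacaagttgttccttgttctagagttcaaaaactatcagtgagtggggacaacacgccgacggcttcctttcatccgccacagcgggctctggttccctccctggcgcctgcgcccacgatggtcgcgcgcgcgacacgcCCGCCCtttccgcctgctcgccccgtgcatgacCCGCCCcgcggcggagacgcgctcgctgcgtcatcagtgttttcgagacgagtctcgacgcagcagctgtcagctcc
CLK3: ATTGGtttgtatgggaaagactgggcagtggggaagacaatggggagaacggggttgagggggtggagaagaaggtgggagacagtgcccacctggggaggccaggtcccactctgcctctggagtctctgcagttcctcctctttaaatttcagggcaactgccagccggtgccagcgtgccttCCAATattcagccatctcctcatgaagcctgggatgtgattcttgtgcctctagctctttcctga
Promoters were found for 36 of the 39 genes. CACGTG, the core of an E-box, was present in 8 of 36 (22.2%), against 9.28% of 8878 expressed protein-coding genes. CCAAT was present in 16 of 36 (44.4%), against 35.6%. TATAAA was present in 5 (13.9%), against 5.06%, and GGGCGG in 23 (63.9%), against 68.3%. Their median GC content of 65.4% lay beside 65.2%. These are matches of letters in a window, given as a description.

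All 7 genes of the hnRNP A/B and D families fell in AMO1 at 1000 nM and 6 of them in XG1. Their median log2 changes were -2.15 and -0.72. Over all genes 65.7% fell in AMO1 and 13.2% in XG1. After median-ratio scaling 7 of this class fell in AMO1 and 6 in XG1, beside 24.0% and 10.2% of all genes. HNRNPDL encodes a relative of hnRNP D whose mRNA carries alternatively spliced exons near its 3′ end. It measured 334.5, 299 and 354 FPKM in the 3 DMSO libraries of XG1, 156, 136 and 147 FPKM at 100 nM and 106, 104 and 98.3 FPKM at 1000 nM. In AMO1 it measured 168, 196 and 174.5 FPKM in DMSO, 51.5, 51.7 and 55.8 FPKM at 100 nM and 23.3, 18.5 and 22.8 FPKM at 1000 nM. In both lines the 3 groups did not overlap and stepped down with dose. HNRNPDL was not called in XG1 in the step from 100 nM to 1000 nM (limma). Its mean at 1000 nM was 31.2% of DMSO in XG1 and 12.0% in AMO1, log2 changes of -1.67 ± 0.12 (SE, adjusted p = 1.77e-05) and -3.01 ± 0.19 (adjusted p = 2.72e-08) in limma. Only 1.06% of all genes in XG1 and 1.50% in AMO1 had a change as low.

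HNRNPA1, the most studied hnRNP and a repressor of exon inclusion, measured 530.4, 447 and 547 FPKM in DMSO, 262, 208.5 and 250.4 FPKM at 100 nM and 237, 202 and 193 FPKM at 1000 nM in XG1. The AMO1 values were 256, 279 and 282 FPKM in DMSO, 82.2, 81.0 and 68.7 FPKM at 100 nM and 56.0, 28.6 and 48.3 FPKM at 1000 nM. All treated libraries lay below all DMSO libraries, and the 2 doses overlapped in XG1 but not in AMO1. The log2 change at 1000 nM was -1.27 ± 0.14 in XG1 (limma, adjusted p = 0.00025) and -2.65 ± 0.24 in AMO1 (adjusted p = 7.07e-07). Its processed copies with rows of their own reached at most 3.40 FPKM.

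HNRNPAB, which encodes the CArG-box binding hnRNP, was the member of this class that did not pass the test in XG1. It measured 235, 199.5 and 257 FPKM in DMSO, 203, 102 and 151 FPKM at 100 nM and 220, 194 and 151 FPKM at 1000 nM in XG1. AMO1 libraries held 294, 324 and 311 FPKM in DMSO, 147, 113 and 113 FPKM at 100 nM and 82.9, 34.1 and 75.7 FPKM at 1000 nM. Treated and DMSO libraries overlapped at both doses in XG1, whereas the 3 AMO1 groups were separate. At 1000 nM the log2 change was -0.30 ± 0.23 in XG1 (limma, adjusted p = 0.41) and -2.35 ± 0.28 in AMO1 (adjusted p = 9.64e-06). At 100 nM in XG1 it was -0.64 ± 0.23 (adjusted p = 0.0848), and -0.88 without 100 nM replicate 1 (adjusted p = 0.0176).

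**Figure D2:**
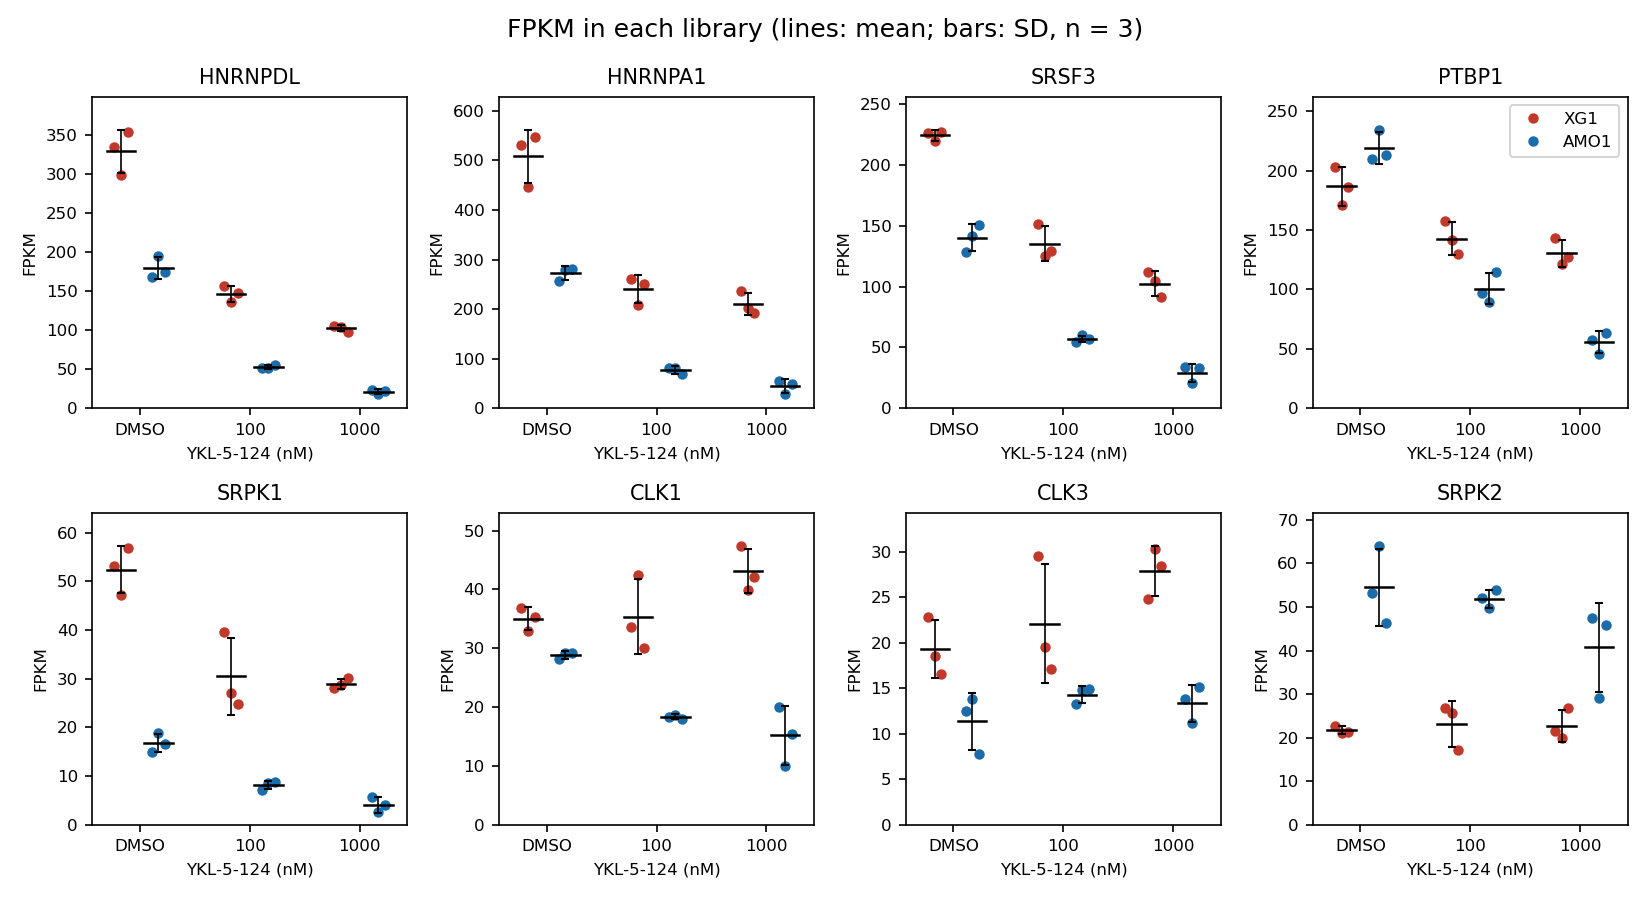
FPKM in each of the 18 libraries for HNRNPDL, HNRNPA1, SRSF3, PTBP1, SRPK1, CLK1, CLK3 and SRPK2, by dose, with the libraries labelled XG1 left of AMO1; horizontal lines are means and bars are SD (n = 3). HNRNPDL lies at 98.3 to 106 FPKM in XG1 and 18.5 to 23.3 FPKM in AMO1 at 1000 nM. CLK3 libraries of AMO1 overlap at all 3 doses.

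The hnRNP F/H genes encode proteins that bind runs of G in RNA. All 4 fell in AMO1 and 3 in XG1 at 1000 nM, beside 65.7% and 13.2% of all genes. Their median log2 changes were -1.89 and -0.73. After median-ratio scaling 3 fell in AMO1 and 2 in XG1, beside 24.0% and 10.2% of all genes. HNRNPH3 measured 153, 153 and 165 FPKM in DMSO, 80.2, 47.1 and 54.6 FPKM at 100 nM and 68.1, 62.4 and 63.9 FPKM at 1000 nM in XG1. In AMO1 the values were 126, 130.1 and 138 FPKM in DMSO, 60.5, 51.6 and 55.9 FPKM at 100 nM and 39.9, 22.6 and 43.9 FPKM at 1000 nM. Treated libraries lay below DMSO in both lines, and the XG1 libraries at 100 nM spanned the range of those at 1000 nM. The log2 change at 100 nM was -1.39 ± 0.17 in XG1 (limma, adjusted p = 0.00119) and -1.22 ± 0.24 in AMO1 (adjusted p = 0.0019). HNRNPF measured 559, 508 and 612 FPKM in DMSO, 505.5, 368 and 433 FPKM at 100 nM and 469, 376 and 357 FPKM at 1000 nM in XG1, and 282, 316.5 and 305 FPKM, 144, 124 and 123.5 FPKM, and 91.3, 50.2 and 76.8 FPKM in AMO1 at the same doses. Its change of -0.49 ± 0.15 in XG1 at 1000 nM had an adjusted p of 0.0462 (limma), and that of -2.07 ± 0.22 in AMO1 one of 3.83e-06. The XG1 call was lost on the relative scale (-0.30, adjusted p = 0.178) and without 1000 nM replicate 2, 1000 nM replicate 3 or any 1 of the 3 DMSO replicates (-0.55 to -0.41, adjusted p 0.0596 to 0.159).

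HNRNPH2 has 2 rows in the table, its own and that of a read-through with RPL36A. Over 99% of the sum stood in 1 of these rows in 15 of the 18 libraries, the larger being HNRNPH2 in 11 libraries and RPL36A-HNRNPH2 in 7. The sum ranged from 63.5 to 112 FPKM in XG1 and from 31.1 to 89.3 FPKM in AMO1, and only the sum was tested.

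Of the other 8 hnRNP genes, 8 fell in AMO1 and 6 in XG1 at 1000 nM, beside 65.7% and 13.2% of all genes. Their median log2 changes were -1.63 and -0.66. After median-ratio scaling 7 fell in AMO1 and 6 in XG1, beside 24.0% and 10.2% of all genes. HNRNPC, whose protein binds runs of U in nascent transcripts, measured 205, 173 and 195 FPKM in DMSO, 102, 78.7 and 94.8 FPKM at 100 nM and 103, 93.7 and 88.2 FPKM at 1000 nM in XG1. In AMO1 it measured 94.4, 104 and 91.0 FPKM in DMSO, 36.1, 39.4 and 39.01 FPKM at 100 nM and 24.9, 16.1 and 27.0 FPKM at 1000 nM. The AMO1 groups of HNRNPC were separate. HNRNPR, which encodes a close relative of SYNCRIP, measured 56.8, 50.4 and 61.8 FPKM in DMSO, 26.9, 19.7 and 25.7 FPKM at 100 nM and 27.0, 27.4 and 24.0 FPKM at 1000 nM in XG1. Its AMO1 values were 25.4, 26.0 and 25.0 FPKM in DMSO, 10.5, 11.2 and 8.87 FPKM at 100 nM and 7.86, 4.12 and 6.30 FPKM at 1000 nM, 3 separate groups. For both genes the XG1 libraries at 100 nM and 1000 nM overlapped and lay below DMSO. The log2 change of HNRNPC at 1000 nM was -0.999 ± 0.14 in XG1 (limma, adjusted p = 0.000805) and -2.07 ± 0.21 in AMO1 (adjusted p = 2.5e-06). That of HNRNPR was -1.08 ± 0.16 in XG1 (adjusted p = 0.00122) and -1.94 ± 0.21 in AMO1 (adjusted p = 4.75e-06).

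PTBP1, the polypyrimidine tract binding protein, which represses many neuronal and muscle exons, measured 203, 171 and 186 FPKM in DMSO, 158, 141 and 130 FPKM at 100 nM and 143, 121.5 and 127 FPKM at 1000 nM in XG1. The AMO1 libraries gave 209.6, 234 and 213 FPKM in DMSO, 97.2, 89.3 and 115 FPKM at 100 nM and 57.8, 45.4 and 63.3 FPKM at 1000 nM. The AMO1 libraries lay above those of XG1 in DMSO and below them at both doses, and treated libraries lay below DMSO in both lines. The log2 change at 1000 nM was -0.51 ± 0.13 in XG1 (limma, adjusted p = 0.0183) and -1.97 ± 0.20 in AMO1 (adjusted p = 2.13e-06). The XG1 call was lost on the relative scale (adjusted p = 0.0511) and without 1000 nM replicate 2, 1000 nM replicate 3, DMSO replicate 1 or DMSO replicate 3 (adjusted p 0.0606 to 0.0884).

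All 11 SRSF genes fell in AMO1 and 7 in XG1 at 1000 nM, beside 65.7% and 13.2% of all genes. Their median log2 changes were -1.45 and -0.66. After median-ratio scaling 7 fell and 1 rose in AMO1, beside 24.0% and 24.9% of all genes. In XG1 5 fell and 0 rose on that scale, beside 10.2% and 9.56%. SRSF3, the smallest SR protein, measured 226.5, 219 and 227 FPKM in DMSO, 152, 125 and 129 FPKM at 100 nM and 112, 104 and 91.5 FPKM at 1000 nM in XG1. In AMO1 it measured 128, 142 and 150.2 FPKM in DMSO, 54.6, 59.9 and 56.9 FPKM at 100 nM and 33.8, 20.8 and 33.0 FPKM at 1000 nM. The 3 groups were separate in both lines. SRSF3 was not called in XG1 between 100 nM and 1000 nM (limma). Its log2 change at 1000 nM was -1.13 ± 0.12 in XG1 (limma, adjusted p = 0.000273) and -2.25 ± 0.21 in AMO1 (adjusted p = 1.18e-06).

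SRSF2, whose protein activates exons and is mutated in some myeloid neoplasms, measured 395, 393 and 438 FPKM in DMSO, 266, 219 and 241 FPKM at 100 nM and 189, 183 and 163 FPKM at 1000 nM in XG1. The AMO1 values were 173, 185 and 194 FPKM in DMSO, 92.8, 104 and 89.7 FPKM at 100 nM and 62.0, 31.4 and 63.8 FPKM at 1000 nM. Again the 3 groups did not overlap in either line, though SRSF2 was not called in XG1 between 100 nM and 1000 nM (limma). At 1000 nM the log2 change was -1.19 ± 0.12 in XG1 (limma, adjusted p = 0.00017) and -1.86 ± 0.25 in AMO1 (adjusted p = 2.44e-05). SRSF5 was among the SR genes that moved least, with 122.7, 58.9 and 92.3 FPKM at 1000 nM and 138, 158 and 139 FPKM in DMSO in AMO1. Its lowest value came from the library that stands apart, and its log2 change was -0.72 (limma, adjusted p = 0.0163), a call lost on the relative scale (0.25, adjusted p = 0.0838).

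TRA2B, an SR-like protein that includes exons rich in GAA repeats, measured 104, 97.9 and 113 FPKM in DMSO, 65.3, 50.4 and 48.5 FPKM at 100 nM and 55.9, 57.5 and 46.8 FPKM at 1000 nM in XG1. AMO1 libraries held 62.2, 70.9 and 64.4 FPKM in DMSO, 30.8, 32.4 and 30.4 FPKM at 100 nM and 24.8, 13.0 and 22.2 FPKM at 1000 nM. Treated libraries lay below DMSO in both lines. The log2 change at 1000 nM was -0.96 ± 0.15 in XG1 (limma, adjusted p = 0.00177) and -1.71 ± 0.23 in AMO1 (adjusted p = 2.29e-05). Its paralogue TRA2A had a log2 change of -0.21 ± 0.15 in XG1 (adjusted p = 0.379) and of -1.29 ± 0.21 in AMO1 (adjusted p = 0.000136).

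The kinases differed among themselves. Of the 4 CLK genes, 0 were called in XG1 in either direction at 1000 nM and 2, CLK1 and CLK2, fell in AMO1. Their median log2 changes were 0.20 and -0.42. Over all genes 13.2% were lower and 3.67% higher in XG1, and 65.7% lower and 2.52% higher in AMO1. After median-ratio scaling 2 CLK genes were higher and 0 lower in each line. Over all genes 9.56% were higher on that scale in XG1 and 24.9% in AMO1. CLK1 measured 36.9, 32.9 and 35.2 FPKM in DMSO, 33.7, 42.4 and 30.0 FPKM at 100 nM and 47.4, 40.0 and 42.1 FPKM at 1000 nM in XG1. In AMO1 the values were 28.1, 29.1 and 29.2 FPKM in DMSO, 18.4, 18.7 and 17.9 FPKM at 100 nM and 20.01, 10.04 and 15.5 FPKM at 1000 nM. The 1000 nM libraries of XG1 lay above DMSO, and all treated libraries of AMO1 lay below it. At 1000 nM the log2 change was 0.29 ± 0.15 in XG1 (limma, adjusted p = 0.232) and -0.93 ± 0.22 in AMO1 (adjusted p = 0.00223). On the relative scale these were 0.47 (adjusted p = 0.0183) and 0.0019 (adjusted p = 0.991), so the AMO1 change passed on the deposited scale only and the XG1 change on the relative scale only.

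CLK3 measured 22.8, 18.5 and 16.6 FPKM in DMSO, 29.5, 19.6 and 17.1 FPKM at 100 nM and 24.8, 30.2 and 28.5 FPKM at 1000 nM in XG1. The AMO1 libraries gave 12.4, 13.8 and 7.76 FPKM in DMSO, 13.2, 14.8 and 14.9 FPKM at 100 nM and 13.8, 11.1 and 15.1 FPKM at 1000 nM. Only the XG1 libraries at 1000 nM were clear of their DMSO group. The log2 change at 1000 nM was 0.51 ± 0.21 in XG1 (limma, adjusted p = 0.116) and 0.24 ± 0.22 in AMO1 (adjusted p = 0.339), and on the relative scale it was 0.69 (adjusted p = 0.0347) and 1.15 (adjusted p = 0.000281). CLK4 measured 8.68, 6.22 and 11.9 FPKM in DMSO, 8.16, 9.95 and 5.60 FPKM at 100 nM and 10.97, 10.8 and 7.12 FPKM at 1000 nM in XG1. In AMO1 CLK4 measured 4.96, 5.82 and 5.35 FPKM in DMSO, 4.60, 5.69 and 4.24 FPKM at 100 nM and 5.98, 4.12 and 6.17 FPKM at 1000 nM. Its groups overlapped at every dose in both lines. CLK4 had log2 changes of 0.12 in XG1 (adjusted p = 0.815) and -0.0024 in AMO1 (adjusted p = 0.992) on the deposited scale, and of 0.82 in AMO1 on the relative scale, where it was called higher. CLK2 had log2 changes of -0.31 in XG1 (adjusted p = 0.349) and -0.83 in AMO1 (adjusted p = 0.00566), and the AMO1 call was lost on the relative scale (0.08, adjusted p = 0.675).

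The SRPK kinases parted in both lines. SRPK1 measured 53.2, 47.2 and 56.8 FPKM in DMSO, 39.5, 27.1 and 24.9 FPKM at 100 nM and 28.1, 28.7 and 30.1 FPKM at 1000 nM in XG1, and 14.9, 18.8 and 16.6 FPKM, 7.16, 8.502 and 8.80 FPKM, and 5.73, 2.52 and 3.98 FPKM in AMO1 at the same doses. SRPK2 measured 22.7, 21.0 and 21.3 FPKM in DMSO, 26.7, 25.6 and 17.1 FPKM at 100 nM and 21.4, 19.9 and 26.8 FPKM at 1000 nM in XG1, and 53.3, 64.0 and 46.3 FPKM, 52.1, 49.8 and 53.8 FPKM, and 47.5, 28.98 and 45.8 FPKM in AMO1. Treated libraries of SRPK1 lay below DMSO in both lines, and the treated groups of SRPK2 overlapped DMSO in both. The log2 change of SRPK1 at 1000 nM was -0.83 ± 0.18 in XG1 (limma, adjusted p = 0.00872) and -1.85 ± 0.23 in AMO1 (adjusted p = 1.23e-05). That of SRPK2 was 0.05 ± 0.19 (adjusted p = 0.886) and -0.43 ± 0.22 (adjusted p = 0.098). On the relative scale SRPK2 was called higher in AMO1 at 1000 nM (0.53) and at 100 nM (0.37), and not called in XG1. With CLK3, CLK4 and SRSF8 it made up the 4 genes called higher in AMO1 at 1000 nM on that scale, beside 24.9% of all genes.

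**Figure D3:**
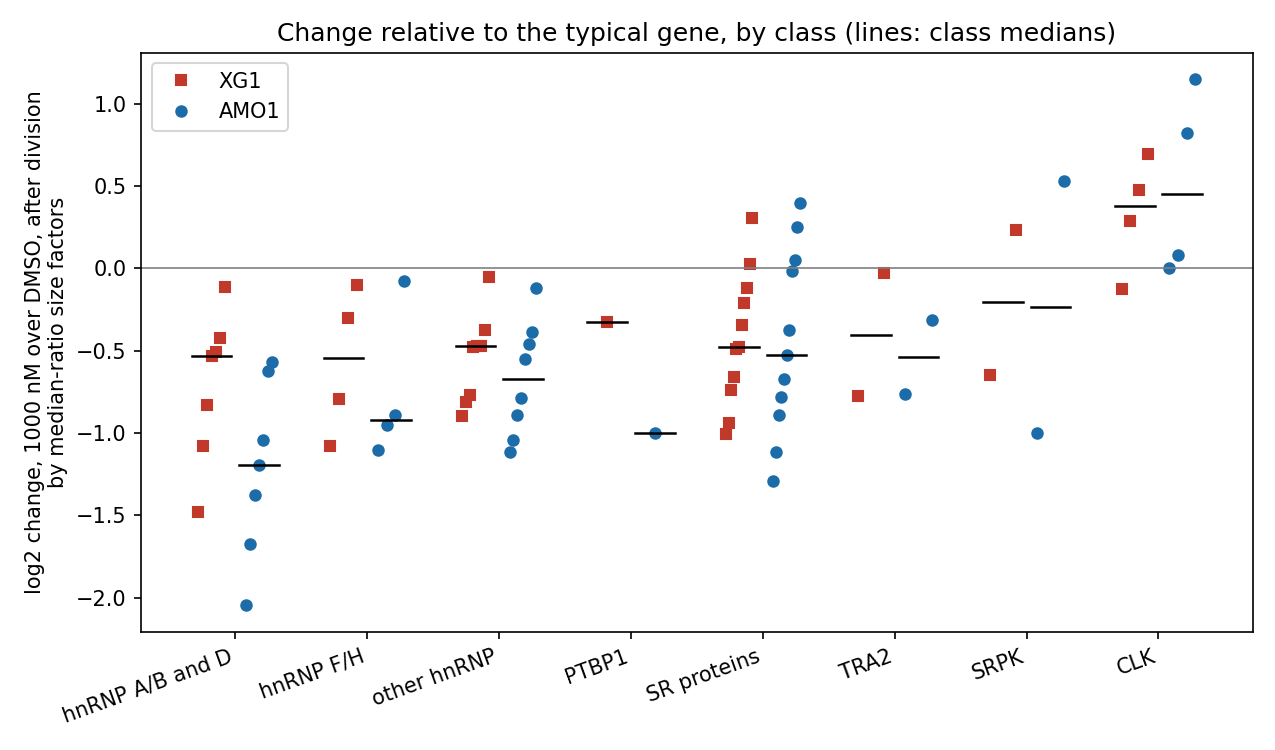
Log2 change at 1000 nM on the relative scale for each of the 39 genes, grouped by class, in the libraries labelled XG1 and in AMO1; short lines are class medians. The CLK medians lie at 0.38 in XG1 and 0.45 in AMO1, and HNRNPDL lies at -1.48 and -2.05.

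The step between the doses was tested within each line and not between them. In AMO1, 26 of 39 genes were lower at 1000 nM than at 100 nM and 0 were higher (limma), beside 23.5% and 0.209% of all genes, with a median log2 difference of -0.69 beside -0.43. HNRNPDL was lower by -1.27 ± 0.19 (adjusted p = 0.00197) and SRSF3 by -0.98 (adjusted p = 0.0116). This count fell when any 1 library at 100 nM was left out. It was 5 without 100 nM replicate 1, 5 without 100 nM replicate 2 and 2 without 100 nM replicate 3. Without 1000 nM replicate 1, 2 or 3 it was 31, 28 or 26. On the relative scale 6 genes were lower and 1 higher, beside 4.22% and 1.83% of all genes. Among genes of at least 5 FPKM, 28 of the 39 were lower, beside 41.6%. In XG1, 0 genes were called in either direction, beside 0.322% lower and 0.0677% higher of all genes. At an unadjusted p under 0.05, 0 were higher and 4 lower in the XG1 step, with no share of all genes to set beside them. The relative scale called 0.803% of all genes lower and 0.169% higher in that step.

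In DMSO, 20 of the 39 genes were higher in XG1 than in AMO1 and 5 lower (limma over 12791 genes), beside 45.0% and 19.8% of all genes. SRSF4 (log2 difference 1.89 ± 0.21, adjusted p = 5.14e-07) and SRSF9 (1.85 ± 0.25, adjusted p = 6.07e-06) were higher in XG1. SRPK1 was also higher in XG1, by 1.59 ± 0.21 (adjusted p = 3.67e-06), and SRPK2 was lower there, by -1.28 ± 0.20 (adjusted p = 2.65e-05). The other 4 that were lower in XG1 were SRSF1 (-1.21 ± 0.18), HNRNPL (-0.93 ± 0.18), HNRNPUL2 (-0.88 ± 0.19) and TRA2A (-0.87 ± 0.17). After median-ratio scaling 19 were higher and 9 lower, beside 37.4% and 28.3%.

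All 25 genes that were lower in XG1 at 1000 nM were lower in AMO1 too. That is 100% of the XG1 list and 69.4% of the 36 in AMO1. As 36 of the 39 genes were lower in AMO1, most of any list of 25 would be shared. No such share was computed over all genes, of which 65.7% were lower in AMO1. At 100 nM, 19 genes were shared, 95% of the 20 in XG1 and 67.9% of the 28 in AMO1. SRSF11 was the gene that passed in XG1 alone. The relative scale had 20 of the 21 genes lower in XG1 at 1000 nM shared, and 15 of the 16 at 100 nM. SRSF11 was again the gene not shared, at both doses. The order of the changes at 1000 nM was alike in the lines: over the 39 genes Spearman's rho was 0.685 and Pearson's r 0.804. These values describe genes measured in the same libraries, and carry no test. No such correlation was computed over all genes.

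**Figure D4:**
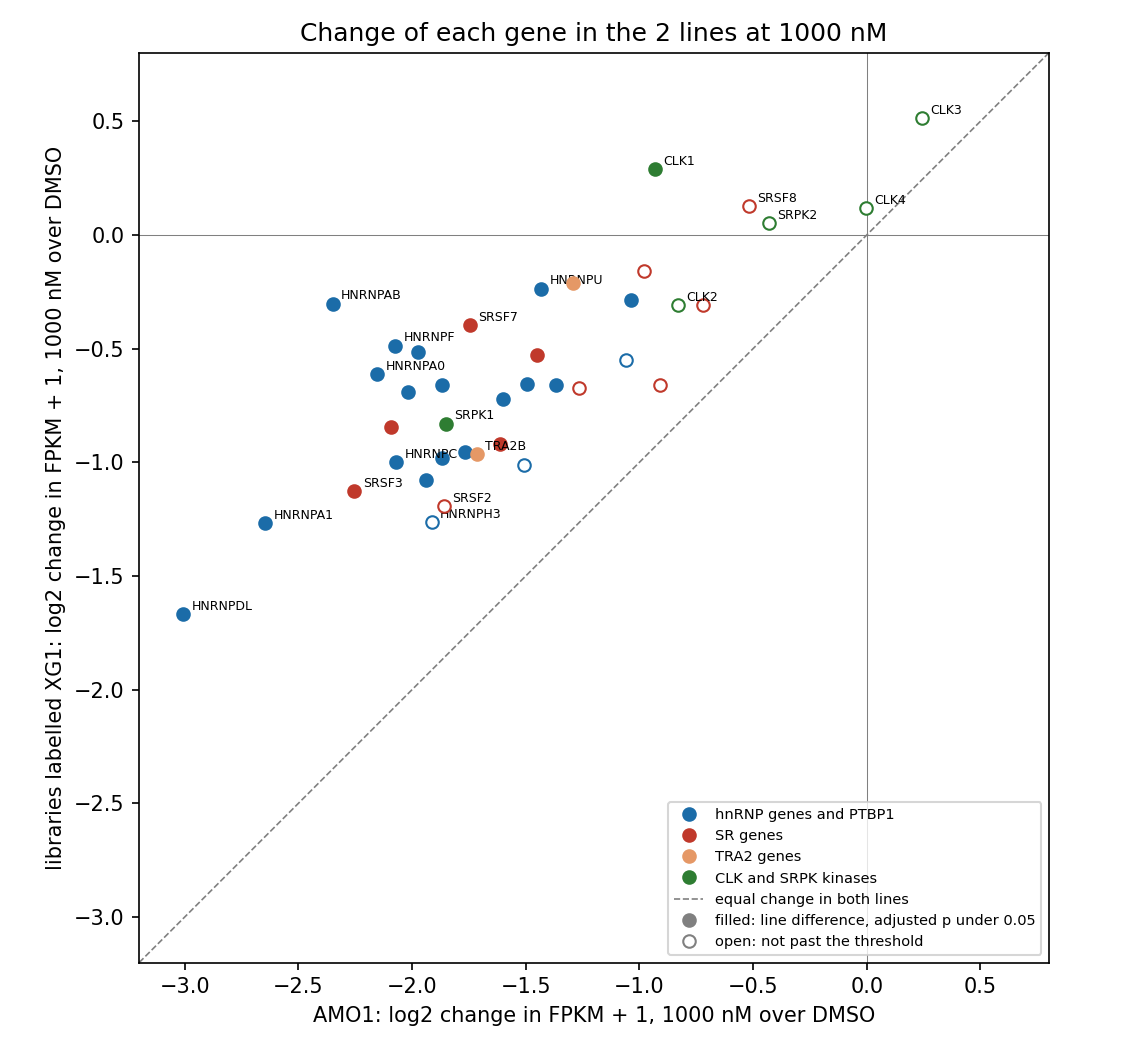
Log2 change at 1000 nM against DMSO of the 39 genes, in AMO1 (horizontal axis) and in the libraries labelled XG1 (vertical axis); filled points are genes whose change differed between the lines (limma, adjusted p under 0.05). On this deposited scale all 39 points lie on the side where the AMO1 change is the more negative, against 23 of 39 on the relative scale.

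The change at 1000 nM itself differed between the lines for 26 of 39 genes, all less negative in XG1 than in AMO1 (0 the other way, also at an unadjusted p under 0.05), beside 32.8% of all genes in that direction and 1.50% in the other. Without AMO1 1000 nM replicate 2 the count was 25. Among genes of at least 5 FPKM it was 27, beside 47.0% of all genes. The median difference was 0.86 over the 39 genes and 0.55 over all genes. On the relative scale 9 genes were less negative in XG1 and 1 more negative, beside 8.44% and 8.58% of all genes. HNRNPAB had the largest difference of the 39 genes, 2.05 ± 0.40 in log2 change (XG1 minus AMO1, adjusted p = 0.00124). It was followed by HNRNPF (1.59 ± 0.27, adjusted p = 0.000411), HNRNPA0 (1.54 ± 0.25, adjusted p = 0.000326), PTBP1 (1.46 ± 0.21, adjusted p = 0.000109), HNRNPA1 (1.38 ± 0.27, adjusted p = 0.0014, and 0.55 on the relative scale, adjusted p = 0.051) and HNRNPDL (1.34 ± 0.18, adjusted p = 6.1e-05). CLK1 differed by 1.22 ± 0.27 (adjusted p = 0.00255; relative scale 0.42, adjusted p = 0.0835). TRA2B passed at 0.75 ± 0.27 (adjusted p = 0.0383) but not without AMO1 1000 nM replicate 2 (0.48, adjusted p = 0.0602), without XG1 replicate 1 or 2 of either dose group compared, or without any 1 AMO1 DMSO replicate (0.70 to 0.79, adjusted p 0.0508 to 0.088). The TRA2B call was also lost with no filter (adjusted p = 0.0704), with only the groups compared (adjusted p = 0.0626) and with the replicate block (adjusted p = 0.0665), and the difference was -0.0499 on the relative scale (adjusted p = 0.846). CLK3 (0.27 ± 0.30, adjusted p = 0.516), HNRNPH3 (0.65 ± 0.30, adjusted p = 0.0983) and SRPK2 (0.48 ± 0.28, adjusted p = 0.193) did not pass.

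At 100 nM the lines differed in 2 genes, HNRNPA0 (0.92 ± 0.25, adjusted p = 0.0384) and PTBP1 (0.74 ± 0.21, adjusted p = 0.0437), both less negative in XG1, beside 5.37% of all genes in that direction and 0.852% in the other. At an unadjusted p under 0.05, 12 genes were less negative in XG1 and 0 more negative. The share of all genes at that threshold was not computed, so these counts cannot be set against it. Leaving out 1 library gave 2 genes without XG1 100 nM replicate 3, and 0 or 1 without any other single library. The relative scale gave 3 less negative and 1 more negative in XG1, beside 5.86% and 3.56% of all genes. HNRNPA0 measured 65.3, 61.2 and 61.4 FPKM at 100 nM and 84.0, 82.6 and 87.6 FPKM in DMSO in XG1, and 49.8, 38.3 and 42.3 FPKM at 100 nM and 115, 121 and 101 FPKM in DMSO in AMO1. Its treated libraries lay below DMSO in both lines.

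Other splicing regulators outside these families were taken from a list of 43 genes. At 1000 nM, 14 of the 38 tested were lower and 0 higher in XG1 (limma), with a median log2 change of -0.36, and 34 of the 36 tested were lower and 0 higher in AMO1, with a median of -1.21, beside 13.2% of all genes lower in XG1 and 65.7% in AMO1. On the relative scale 8 of 38 were lower and 1 higher in XG1, beside 10.2% and 9.56% of all genes, and 18 of 35 were lower and 3 higher in AMO1, beside 24.0% and 24.9%. FUBP1, a single-strand DNA and RNA binding protein, fell in both lines, with log2 changes of -1.43 in XG1 (limma, adjusted p = 0.000143) and -1.998 in AMO1 (adjusted p = 3.85e-06). KHSRP, which binds AU-rich and intronic elements, fell with log2 changes of -0.69 in XG1 (adjusted p = 0.00195) and -2.05 in AMO1 (adjusted p = 2.37e-06). DYRK1A and HNRNPLL were the 2 that did not pass in AMO1.

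In the GENCODE annotation, 31 of the 39 genes (79.5%) have a transcript marked as a target of nonsense-mediated decay, against 43.6% of 11097 expressed protein-coding genes, and 29 (74.4%) have one with a retained intron, against 58.2%. These shares describe annotation, and no splicing was measured in libraries read from 3′ ends. Several rows share their place with another gene, and whether counting used strand is not given: HNRNPAB with PHYKPL, HNRNPH3 with PBLD and RUFY2, HNRNPK with RMI1, SRSF2 with MFSD11, SRSF4 with MECR, SRSF9 with GATC, CLK3 with CLK3-AS1 and SRPK2 with KMT2E. Their values are uncertain to that extent.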

How the data were processed

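The files hold 1 FPKM value per gene in each of 18 libraries made from RNA 3′ ends. Per the submitters' processing notes, the authors used HISAT2, the hg19 build and Cuffnorm; tool versions: not given in the sources used here. Judged by level spike-in totals, the deposited FPKM values may carry a spike-in rescaling. Read depth is unknown, so no counting intervals were computed and no count test was run.

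Groups came from the sample labels. Values were taken as log2(FPKM + 1), kept for genes with at least 1 FPKM in 3 libraries of a fit, and tested with limma 3.58.1 in R 4.3.3 (mean-variance trend, Benjamini-Hochberg adjustment over all genes, threshold 0.05). A log2 change on this scale understates the change of low genes. The 9 libraries of each line were fitted together for dose, and all 18 for comparisons of the lines. An exact permutation test of 3 against 3 libraries cannot go below p = 0.1 and was not used. The fits were tested on simulated data. Per-library values were described for the genes with the largest change or smallest adjusted p in each class, for any gene called higher with dose on the deposited scale, of which there were 0, and for the 2 largest line differences at 1000 nM. HNRNPA1, HNRNPA0, CLK4, SRPK2 and SRSF5, some of these in part of the groups only, were added after their values were seen. Members and lists were chosen with earlier results of these data known. Alternatives were a pseudocount of 0.1, no filter, a filter of 5 FPKM, the relative scale, fits of only the groups compared, a replicate block and leaving out each library. Promoters came from RefSeq and were matched by symbol; transcript classes came from GENCODE. Protein sequences were not used here. Tables and figures were made with Python 3.11.15, pandas 2.3.3 and matplotlib 3.10.9.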

Additional observations from a re-analysis of the deposited data

Results flagged for a closer look

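The response to 1000 nM YKL-5-124 differed between the libraries labelled XG1 and AMO1 for 26 of the 39 genes (limma, interaction of line and dose), beside 32.8% of all genes, and the response to 100 nM for 2, beside 5.37%. The 26 were 9 on the relative scale, with 1 more in the other direction. The 2 are 5.13% of the 39 genes, near the 5.37% of all genes. They were 0 with the replicate block or with no filter, and 0 to 2 with 1 library left out. The difference, XG1 minus AMO1, in log2 change at 1000 nM was 2.05 for HNRNPAB, with -0.30 in XG1 and -2.35 in AMO1. It was 1.59 for HNRNPF, with -0.49 in XG1 and -2.07 in AMO1. For CLK1 it was 1.22, with 0.29 in XG1 and -0.93 in AMO1, a call lost on the relative scale (0.42, limma adjusted p = 0.084). At 100 nM it was 0.92 for HNRNPA0, with -0.43 in XG1 and -1.35 in AMO1, and 0.74 for PTBP1, with -0.39 in XG1 and -1.12 in AMO1. The libraries labelled XG1 had low plasma cell markers and the erythroid markers of another cell type, and the part of this in the differences was not tested.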

How the results depend on the processing

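On the relative scale the genes called higher were 4 in AMO1 at 1000 nM, 3 in AMO1 at 100 nM, 1 in AMO1 at 1000 nM against 100 nM and 2 in XG1 at 1000 nM, where the deposited scale gave 0 in each. On it 6 genes were lower in AMO1 at 1000 nM against 100 nM, 9 were lower in XG1 than in AMO1 in DMSO, the line difference at 1000 nM had 9 higher and 1 lower, and that at 100 nM had 1 lower. Genes lower in AMO1 at 1000 nM against 100 nM numbered 26, but 5 with no filter and 12 with only the groups compared in the fit. With those groups alone, 1 gene was higher in XG1 at 1000 nM. The line difference at 100 nM held 2 genes, but 1 with a pseudocount of 0.1, 0 with no filter and 10 with only the groups compared. With the replicate number as a block, 15 genes were lower in AMO1 at 1000 nM against 100 nM and 0 differed between the lines at 100 nM. Deviations of same-numbered libraries had correlations of -0.044 to 0.157 in XG1 and -0.193 to 0.115 in AMO1. For different numbers these were -0.137 to 0.0932 in XG1 and -0.175 to 0.157 in AMO1. In XG1 the medians were 0.045 for the same number and -0.023 for different numbers, and in AMO1 -0.041 and 0.021. Whether same-numbered XG1 libraries are paired is therefore not settled.

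Leaving out 1 library gave 20 to 23 lower genes in XG1 at 1000 nM, 12 to 24 in XG1 at 100 nM, 34 to 36 in AMO1 at 1000 nM, 21 to 25 in AMO1 at 100 nM and 2 to 31 in AMO1 at 1000 nM against 100 nM. It gave 18 to 20 higher and 5 lower genes in XG1 than in AMO1 in DMSO, 20 to 29 line differences at 1000 nM and 0 to 2 at 100 nM. Of 1206 alternatives for the genes described singly, 1060 kept direction and side of the threshold, 115 lost the call, 15 gained one and 16 turned direction, none of these past the threshold both ways. On the relative scale the turned values were 0.0019 for CLK1 in AMO1 at 1000 nM, 0.21 for CLK1 and 0.41 for CLK3 in AMO1 at 1000 nM against 100 nM, 0.19 for CLK1 in XG1 at 100 nM, -0.0317 for CLK1 and -0.0561 for HNRNPH3 in XG1 against AMO1 in DMSO, and, for line differences at 1000 nM, -0.0499 for TRA2B, -0.17 for HNRNPH3, -0.16 for SRSF2 and -0.52 for CLK3. Leaving out 1 library moved CLK1 in XG1 at 100 nM, -0.00054 in all libraries, between -0.135 (without 100 nM replicate 2) and 0.108 (without 100 nM replicate 3), with positive values also without 100 nM replicate 1, DMSO replicate 1 or DMSO replicate 3. It moved CLK3 in XG1 at 100 nM between -0.0609 (without 100 nM replicate 1) and 0.314, and CLK3 in AMO1 at 1000 nM against 100 nM between -0.19 and 0.014 (without 1000 nM replicate 2). The cause was not tested. Unknown read depth leaves the error of low values such as those of CLK4 unstated.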

Other observations

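Ratios between relatives within a library do not depend on the scale, and 9 pairs of genes were compared, chosen after their values were seen and so without a test. The log2 ratio of SRPK2 to SRPK1 averaged -1.27 in DMSO, -0.40 at 100 nM and -0.36 at 1000 nM in XG1, and 1.70, 2.68 and 3.37 in AMO1. From DMSO to 1000 nM the ratio of CLK3 to CLK2 moved by 0.86 in XG1 and 1.16 in AMO1 on the log2 scale, and that of HNRNPDL to HNRNPD by -0.98 and -1.03. The ratio of SRSF5 to SRSF3 moved by 0.83 in XG1 and 1.57 in AMO1, and that of HNRNPA1 to HNRNPA2B1 by -0.55 and -1.06. The ratio of CLK1 to CLK2 moved by 0.62 in XG1, and by -0.08 in AMO1, where treated and DMSO libraries overlapped.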
